A study of Mus musculus with 167 samples.

Results

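The report follows 10 genes of glucose uptake and breakdown, namely Slc2a1, Hk2, Pfkl, Aldoa, Tpi1, Gapdh, Pgk1, Pgam1, Eno1 and Ldha. They were taken by symbol from every RNA file of a mouse B-cell series, and all 10 were found among 24500 gene symbols. They were read in 44 RNA libraries of 18 groups, among 167 samples in all. The series asks how Pax5, the transcription factor that commits cells to the B lineage, represses Wapl, the factor that releases cohesin from chromosomes. Prolonged loop extrusion at Igh, the immunoglobulin heavy-chain locus, is the setting of that question.

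Glycolysis splits glucose into pyruvate in the cytosol and yields ATP and building blocks for dividing cells. Slc2a1 (GLUT1) carries glucose through the membrane, Hk2 traps it by phosphorylation, and Pfkl commits it to the pathway. Aldoa cleaves the doubly phosphorylated sugar and Tpi1 interconverts the products. Gapdh, Pgk1, Pgam1 and Eno1 then work in that order toward pyruvate, and Ldha reduces pyruvate to lactate. HIF-1, the hypoxia-inducible factor, and Myc are textbook activators of many of these genes. Pro-B cells rearrange Igh, pre-B cells rearrange the light-chain genes, and immature B cells carry the finished receptor on their surface.

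All mice were on the C57BL/6 background. The Wapl(deltaP1,2/deltaP1,2) allele, written dP1,2 below, was studied in sorted pre-B cells (2 libraries, against 2 of Wapl(+/+)), in sorted pro-B cells (2 against 2 Wapl(+/+)), and in pro-B cells expanded for 3 days in culture (3 against 2 Wapl(+/+)). Progenitors labelled Pax5(-/-) gave 2 libraries, against 3 of Pax5(+/+) pro-B cells. Pro-B cells labelled Eed(F/F) Rag1-cre gave 5 libraries, against 3 of Eed(F/+) Rag1-cre and 1 of Eed(F/F) without Cre. Eed is a core subunit of the Polycomb repressor PRC2, and in these mice Cre is expressed from Rag1, which is active in early lymphocytes. Immature B cells carried changed Igh alleles, with 2 libraries each of Igh(890-inv/+), Igh(CBE/+) and Igh(CBE-inv/+). Of 5 Igh(+/+) libraries, 2 were the controls of Igh(890-inv/+). The other 3, of a separate experiment, were the controls of both Igh(CBE/+) and Igh(CBE-inv/+). A further 2 each of Igh(V8-8/delta890) and Igh(V8-8-inv/delta890) were set against 2 of Igh(+/delta890), so all 3 of those groups carry the delta890 allele. No label says whether libraries of a group came from separate animals, so p-values measure the spread between libraries, which may be technical.

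Levels are TPM, a transcript abundance adjusted for gene length and scaled so that every library has the same total. Between 14591 and 16675 symbols were above 0 per library, and read depth is unknown. The labels held for Pax5, at 43.0 and 39.1 TPM in Pax5(-/-) progenitors, against 342, 386 and 391 TPM in Pax5(+/+) pro-B cells. Wapl, listed under its older symbol Wapal, stood at 30.9 and 31.7 TPM in sorted dP1,2 pro-B cells, against 10.4 and 10.999 TPM in Wapl(+/+) pro-B cells. Eed stood at 123 to 222 TPM in the libraries labelled Eed(F/F) Rag1-cre, against 58.4 to 122 TPM in the controls, and a whole-gene value does not check an exon deletion. No marker of the B lineage, pro-B or immature and mature B lists was at 0 throughout a group: 6 pro-B markers summed to 8472 to 8611 TPM in sorted Wapl(+/+) pro-B cells, and 6 immature and mature B markers to 14813 to 22497 TPM in immature B cells.

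Mature transcripts of some members occur almost letter for letter elsewhere in the genome, which bears on what a level means. Of the 50-base windows along each transcript, 92.9% for Pgk1, 91.9% for Pgam1, 85.6% for Gapdh and 72.2% for Eno1 were also found at another place in build NCBIM37. The share was 29.1% for Ldha, 23.6% for Tpi1, 14.8% for Aldoa and 0.38% for Pfkl, and no window of Slc2a1 or Hk2 was repeated. With windows of 100 bases, 85.1% of Gapdh and 89.8% of Pgk1 were still repeated, against 1.32% of Ldha. Gapdh had a median of 6.39 TPM over the 44 libraries and Eno1 a median of 2.62 TPM, while Ldha had 329 and Aldoa 598 TPM. Level did not follow the repeated share throughout. Pgk1 and Pgam1, the most repeated, had medians of 72.2 and 18.2 TPM, and Hk2, with no repeated window, had 9.21 TPM. The sources used here do not say how repeated reads were counted, so the values of Gapdh, Eno1, Pgk1 and Pgam1 are uncertain. Tpi1 and Eno1 are also marked in the files as overlapping another gene, and use of strand is not given.

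**Figure D1:**
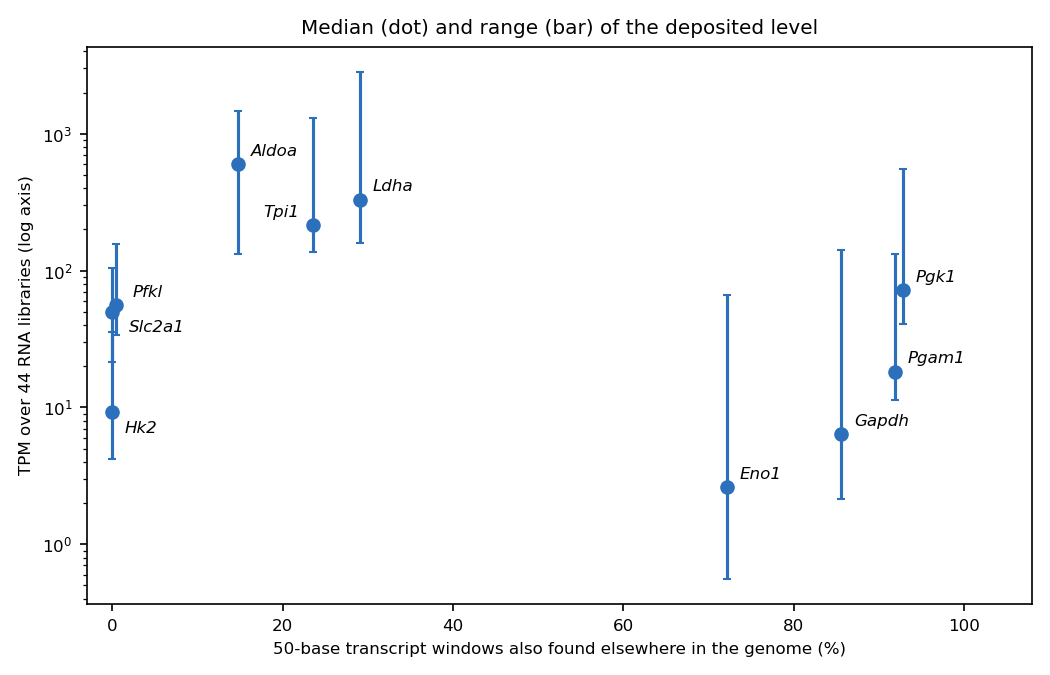
Median (dot) and range (bar) of the TPM over 44 libraries on a log axis, against the percent of 50-base transcript windows also found elsewhere in the genome. Gapdh and Eno1 lie at 85.6% and 72.2% with medians of 6.39 and 2.62 TPM, while Aldoa and Ldha lie at 14.8% and 29.1% with medians of 598 and 329 TPM. Pgk1 and Pgam1 lie at 92.9% and 91.9% with medians of 72.2 and 18.2 TPM, and Hk2 at 0% with a median of 9.21 TPM.

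In sorted pro-B cells, 7 of the 10 genes fell in dP1,2 relative to Wapl(+/+): Hk2, Pfkl, Aldoa, Tpi1, Pgk1, Pgam1 and Ldha. Ratios of the group means lay between 0.589 and 0.767 for these 7. The transporter Slc2a1 and the 2 low genes Gapdh and Eno1 did not pass the test. Over all 12465 genes tested, 9.63% fell and 17.3% were called in either direction (limma on log2(TPM + 1), Benjamini-Hochberg adjusted p under 0.05). The median log2 difference was -0.62 over the 10 genes and -0.01 over all genes tested.

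Ldha, the pyruvate-to-lactate step, had 382 and 342 TPM in dP1,2 pro-B cells, against 606 and 619.9 TPM in Wapl(+/+) pro-B cells. Both mutant libraries lay below both controls, and the log2 difference was -0.76 ± 0.09 (SE; limma adjusted p = 0.00138). Pfkl, the liver-type subunit of phosphofructokinase, had 51.6 and 47.7 TPM in dP1,2 pro-B cells, against 83.3 and 81.3 TPM in Wapl(+/+) pro-B cells. The groups again did not overlap, with a log2 difference of -0.72 ± 0.08 (limma adjusted p = 0.00103). Aldoa, the aldolase of most tissues, had 162 and 181 TPM in dP1,2 pro-B cells, against 303 and 281 TPM in Wapl(+/+) pro-B cells. Its log2 difference of -0.76 ± 0.09 was of the size seen for Ldha (limma adjusted p = 0.00193). Tpi1, the triose isomerase, had 234 and 213 TPM in dP1,2 pro-B cells, against 354 and 363 TPM in Wapl(+/+) pro-B cells, a log2 difference of -0.68 ± 0.08 (limma adjusted p = 0.00156). These 4 calls were kept when any 1 library of the sorted experiment was left out.

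Hk2, the inducible hexokinase, had 6.36 and 6.49 TPM in dP1,2 pro-B cells, against 10.6 and 11.3 TPM in Wapl(+/+) pro-B cells. The groups were apart, with a log2 difference of -0.68 ± 0.13 (limma adjusted p = 0.0116), but leaving out any of the 4 pro-B libraries ended the call (adjusted p 0.0524 to 0.088). Pgk1, which makes the first ATP of the pathway, had 78.2 and 74.0 TPM in dP1,2 pro-B cells, against 93.0 and 105 TPM in Wapl(+/+) pro-B cells (log2 difference -0.38 ± 0.10, limma adjusted p = 0.0383). Pgam1, the phosphoglycerate mutase, had 13.9 and 16.3 TPM in dP1,2 pro-B cells, against 20.6 and 25.2 TPM in Wapl(+/+) pro-B cells (log2 difference -0.57 ± 0.14, limma adjusted p = 0.0321). Each of these 2 calls was lost without any 1 of the 4 pro-B libraries. The Pgk1 call was also lost without either Wapl(+/+) pre-B library, with adjusted p of 0.0673 to 0.211 over its 6 losses. The Pgam1 call was also lost without either dP1,2 pre-B library, with adjusted p of 0.0535 to 0.194. With no filter on low values both calls were lost too (adjusted p = 0.0571 for Pgk1 and 0.0606 for Pgam1).

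Slc2a1 had 21.6 and 21.3 TPM in dP1,2 pro-B cells, against 25.0 and 24.1 TPM in Wapl(+/+) pro-B cells. The libraries did not overlap, but the log2 difference of -0.19 ± 0.10 did not pass the test (limma adjusted p = 0.23). Gapdh had 4.92 and 8.45 TPM in dP1,2 pro-B cells, against 4.80 and 5.52 TPM in Wapl(+/+) pro-B cells, and Eno1 had 1.30 and 6.48 TPM against 1.89 and 3.63 TPM in the same groups. For both genes the groups overlapped (limma adjusted p = 0.482 for Gapdh and 0.846 for Eno1). The 10 genes together summed to 917.7 and 955.9 TPM in dP1,2 pro-B cells, against 1502.4 and 1520.8 TPM in Wapl(+/+) pro-B cells.

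Among other genes of the pathway, taken from lists, the number called was smaller. In this comparison 9.63% of all genes fell and 17.3% were called. Of 14 other glycolysis enzymes and isoforms tested, 3 fell in dP1,2 pro-B cells and none rose, with a median log2 difference of -0.11. The 3 were Ldhb, the heart-type lactate dehydrogenase subunit, Pkm, the pyruvate kinase, and Gpi1, the hexose phosphate isomerase. Their log2 differences were -1.38 (limma adjusted p = 0.0086), -0.47 (limma adjusted p = 0.0064) and -0.30 (limma adjusted p = 0.028). Of 10 sugar and lactate transport genes, 4 rose and 2 fell. Txnip, an inhibitor of glucose uptake, had 269 and 301 TPM in dP1,2 pro-B cells, against 152 and 159 TPM in Wapl(+/+) pro-B cells (log2 difference 0.87, limma adjusted p = 0.00042). Slc2a3 (GLUT3) had 12.4 TPM in both dP1,2 libraries, against 20.0 and 20.4 TPM in Wapl(+/+) pro-B cells (log2 difference -0.66, limma adjusted p = 0.0033). Slc16a1, the lactate carrier MCT1, went the other way, with 449 and 428 TPM in dP1,2 pro-B cells, against 242 and 282 TPM in Wapl(+/+) pro-B cells (log2 difference 0.75, limma adjusted p = 0.0037).

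Among the lists of regulators, Myc had 68.3 and 62.4 TPM in dP1,2 pro-B cells, against 164 and 156 TPM in Wapl(+/+) pro-B cells (log2 difference -1.28, limma adjusted p = 0.0012). Of 21 Myc and mTORC1 genes 4 rose and 1, Myc itself, fell, and of 23 HIF-1 genes 3 rose and 2 fell. These counts are read against 17.3% of all genes called in either direction and 9.63% that fell. Pdk1, a kinase that holds pyruvate back from the citric acid cycle, had 27.3 and 24.8 TPM in dP1,2 pro-B cells, against 51.1 and 44.7 TPM in Wapl(+/+) pro-B cells (log2 difference -0.85, limma adjusted p = 0.0018). None of 20 citric acid cycle genes and none of 20 respiratory chain genes were called by limma, in a comparison that called 17.3% of 12465 genes. Before adjustment, 4004 of all genes tested had a limma p under 0.05. Of 18 cell cycle genes 1 rose and 2 fell, near the share of all genes called. Of 8 pentose phosphate genes, Tkt, a transketolase that feeds sugars back into glycolysis, fell by 0.73 on the log2 scale.

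Markers of other cell types were summed for the same libraries. Erythroid markers summed to 527 to 770.4 TPM in dP1,2 pro-B cells, against 320.3 to 398 TPM in Wapl(+/+) pro-B cells, and 3 of 6 rose. Immature and mature B markers summed to 104 to 144 TPM in dP1,2 pro-B cells, against 186 to 188 TPM in Wapl(+/+) pro-B cells. Myeloid markers summed to 1170.5 to 2678 TPM in dP1,2 pro-B cells, against 1180.3 to 2389 TPM in Wapl(+/+) pro-B cells. Ddx3y, a Y-linked gene, was listed at 0 in both dP1,2 pro-B libraries, against 2.65 and 7.20 TPM in Wapl(+/+) pro-B cells, so Y-linked RNA differed with genotype, and Pgk1 is on chromosome X. The part of these in the results was not tested, and in bulk RNA fewer cells of a type and less RNA per cell cannot be told apart.

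In sorted pre-B cells, none of the 10 genes was called in dP1,2 relative to Wapl(+/+) (limma, against 3.02% of 12465 genes called and 1954 at an unadjusted p under 0.05). The median log2 difference was -0.12 over the 10 genes and -0.01 over all genes tested. Ldha had 159 and 168 TPM in dP1,2 pre-B cells, against 171 and 194 TPM in Wapl(+/+) pre-B cells (log2 difference -0.16 ± 0.09, limma adjusted p = 0.458). Pfkl had 38.5 and 41.0 TPM in dP1,2 pre-B cells, against 40.0 TPM in both Wapl(+/+) libraries, and Aldoa had 342 and 399 TPM against 379 and 381 TPM, so both genes overlapped. Tpi1 lay apart, with 153 and 136 TPM in dP1,2 pre-B cells, against 186 and 181 TPM in Wapl(+/+) pre-B cells, but did not pass the test (log2 difference -0.34 ± 0.08, limma adjusted p = 0.0818). Pro-B markers summed to 486 to 615 TPM in dP1,2 pre-B cells, against 70.8 to 87.2 TPM in Wapl(+/+) pre-B cells, and all 6 rose. Ddx3y was listed at 0 in both dP1,2 pre-B libraries, against 2.79 and 10.9 TPM in Wapl(+/+) pre-B cells, and 3 of 5 sex-linked genes, all Y-linked, were lower. The part of these in the values was not tested. Txnip rose here too (log2 difference 0.66, limma adjusted p = 0.0028).

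The genotype effect in pre-B cells minus that in pro-B cells passed the test for 3 of the 10 genes, all with a positive sign, in a term that called 3.35% of all genes and 1.97% with a positive sign. The difference of the log2 differences was 0.71 ± 0.11 for Pfkl (limma adjusted p = 0.0163), 0.72 ± 0.13 for Aldoa (limma adjusted p = 0.0324) and 0.60 ± 0.13 for Ldha (limma adjusted p = 0.0464). The genotype effect was thus more negative in pro-B cells for these 3. For Hk2 the difference was 0.52 ± 0.19 and for Tpi1 0.34 ± 0.12, and neither passed (limma adjusted p = 0.196 and 0.17). Calls were lost when single libraries were left out: Pfkl lost its call without any of 6 of the 8 libraries (adjusted p 0.0655 to 0.0971), Aldoa without any of 7 (0.0783 to 0.153) and Ldha without any of the 8 (0.0726 to 0.168). The Ldha call was also lost with a pseudocount of 0.1 (adjusted p = 0.0575), under median-ratio scaling (0.0528) and with no filter on low values (0.0753), and the Aldoa call with no filter (0.0589). Outside the 10 genes, Myc and Pdk1 also passed this test, with 1.26 and 1.22 on the log2 scale.

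**Figure D2:**
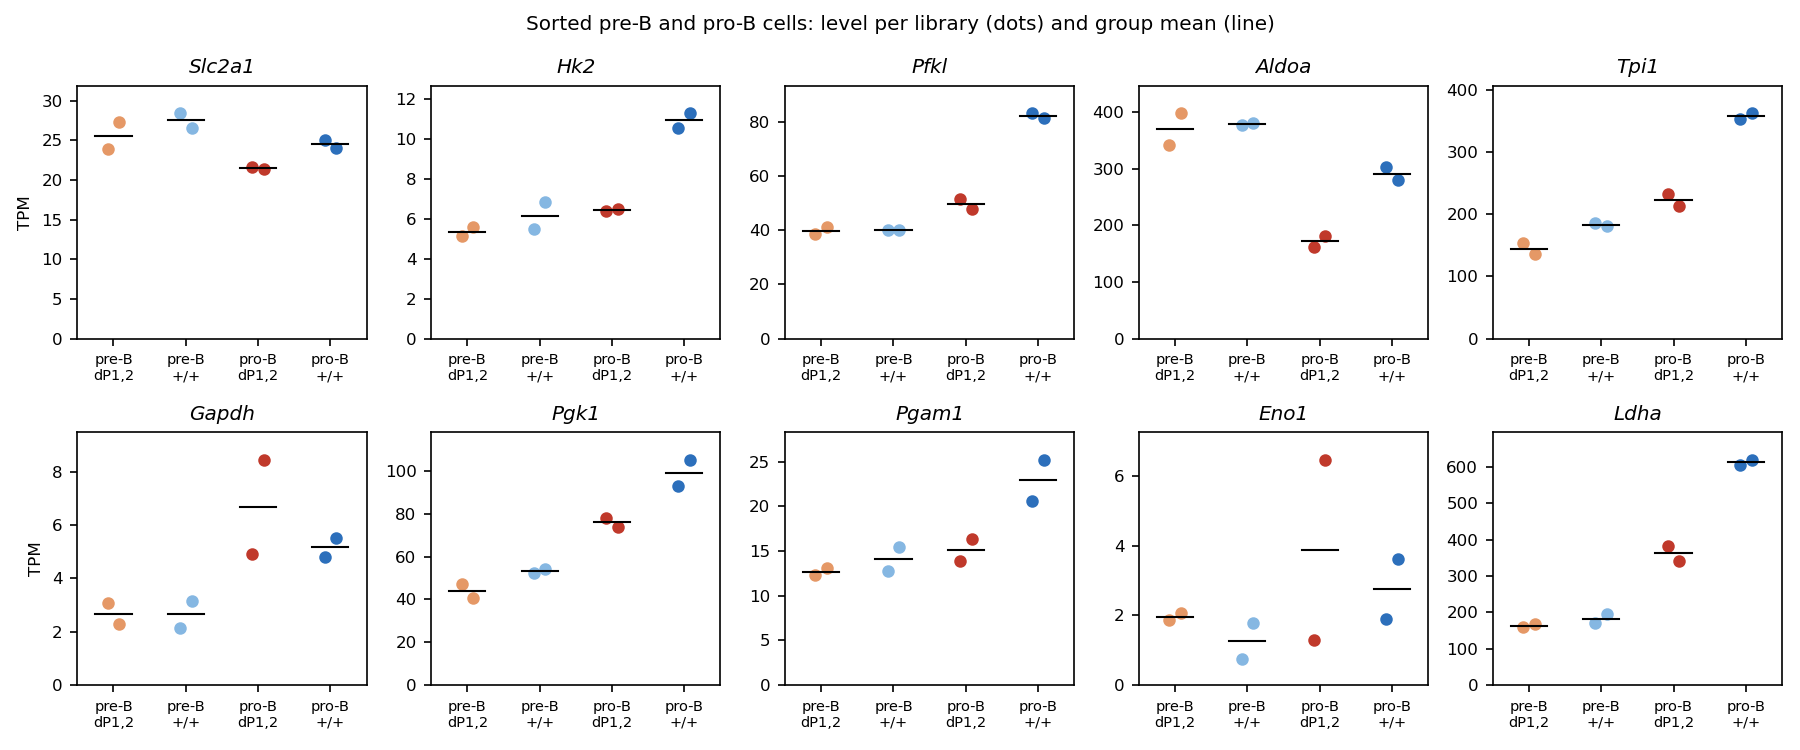
TPM per library (dots) and group mean (line) of each gene in sorted pre-B and pro-B cells, dP1,2 left of Wapl(+/+). In pro-B cells Ldha stands at 382 and 342 TPM in dP1,2 against 606 and 619.9 TPM in Wapl(+/+), and in pre-B cells at 159 and 168 TPM against 171 and 194 TPM.

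Between the stages of Wapl(+/+) cells, 7 of the 10 genes fell and 1 rose in pre-B relative to pro-B cells, where 33.9% of all genes fell, 23.8% rose and 57.7% were called. The count of the 10 genes is therefore read against a broad change, and the median log2 difference was -0.76 over the 10 genes and -0.08 over all genes tested. Ldha was furthest down, with 171 and 194 TPM in pre-B cells, against 606 and 619.9 TPM in pro-B cells, a ratio of means of 0.298 and a log2 difference of -1.74 ± 0.09 (limma adjusted p = 2.54e-06). Pfkl (log2 difference -1.02), Tpi1 (-0.97), Pgk1 (-0.88), Gapdh (-0.77), Hk2 (-0.74) and Pgam1 (-0.66) also fell. The Gapdh call (limma adjusted p = 0.0288) was lost without either Wapl(+/+) pro-B library or without pre-B replicate 1 (adjusted p 0.0762 to 0.171), and with no filter on low values (0.0632).

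Aldoa went the other way between the stages, with 379 and 381 TPM in pre-B cells, against 303 and 281 TPM in pro-B cells (log2 difference 0.38 ± 0.09, limma adjusted p = 0.00955). Without Wapl(+/+) pro-B replicate 2 its call was lost (log2 difference 0.33, adjusted p = 0.0701). Slc2a1 had 28.4 and 26.6 TPM in pre-B cells, against 25.0 and 24.1 TPM in pro-B cells, and did not pass (log2 difference 0.16 ± 0.10, limma adjusted p = 0.195). In dP1,2 cells 1 of the 10 genes rose and 5 fell, where 20.8% of all genes rose, 32.5% fell and 53.3% were called. Aldoa rose by more, with 342 and 399 TPM in pre-B cells, against 162 and 181 TPM in pro-B cells (log2 difference 1.10 ± 0.09, limma adjusted p = 4.91e-05). There Ldha fell by 1.14 on the log2 scale (limma adjusted p = 2.88e-05), while the Pfkl call (log2 difference -0.31) was lost without dP1,2 replicate 1 of either stage (adjusted p 0.053 and 0.0547) and the Gapdh call (-1.03) without replicate 2 of either stage (0.0575 and 0.068). Slc2a1 had 23.9 and 27.3 TPM in dP1,2 pre-B cells, against 21.6 and 21.3 TPM in dP1,2 pro-B cells (log2 difference 0.24 ± 0.10, limma adjusted p = 0.0664). It was called under median-ratio scaling (0.30, adjusted p = 0.0375), with immunoglobulin rows left out of the scaling (0.28, adjusted p = 0.0406) and without dP1,2 pre-B replicate 1 (0.34, adjusted p = 0.0381). Eno1 (log2 difference -0.49, limma adjusted p = 0.449) was called without dP1,2 pro-B replicate 1 (-1.34, adjusted p = 0.0343), and its sign turned without replicate 2 (0.36). The dP1,2 pro-B libraries lay between the Wapl(+/+) pro-B and both pre-B groups for Pfkl, Tpi1, Pgk1 and Ldha. Aldoa was not in that order, since its dP1,2 pro-B libraries lay below every other sorted library.

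The isoforms and regulators around the 10 genes moved in both directions between the Wapl(+/+) stages. Of 14 other glycolysis genes 7 fell and 3 rose, among them Hk1, the constitutive hexokinase, with 38.3 and 42.1 TPM in pre-B cells, against 109 and 116 TPM in pro-B cells (log2 difference -1.46). Myc had 5.16 and 7.04 TPM in pre-B cells, against 164 and 156 TPM in pro-B cells (log2 difference -4.51, limma adjusted p = 3.9e-07). Of 23 HIF-1 genes 9 fell and 7 rose, of 20 respiratory chain genes 9 fell and 1 rose, and of 18 cell cycle genes 8 fell and none rose. Over all genes 57.7% were called in either direction and 33.9% fell. Counted in both directions, the respiratory chain and the cell cycle lay below the share of all genes. Their falls alone lay above the share of all genes that fell.

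The sequences just upstream of the start sites are shown for 4 genes that differ in their calls. Ldha and Pfkl fell both in dP1,2 relative to Wapl(+/+) pro-B cells and in Wapl(+/+) pre-B relative to pro-B cells. Aldoa fell in the first of these comparisons and rose in the second, and Slc2a1 passed neither test. Each is the 250 bases before the outermost start listed by RefSeq in GRCm38.p6, 5′ to 3′ on the gene's strand. They lie at chr7:46845554-46845803 (plus strand) for Ldha, chr10:78009808-78010057 (minus) for Pfkl, chr7:126800448-126800697 (minus) for Aldoa and chr4:119108495-119108744 (plus) for Slc2a1. Capitals mark matches, on either strand, to the core of the HIF-1 element (ACGTG or GCGTG) and to the Myc E-box (CACGTG, which holds ACGTG on both strands).
Ldha: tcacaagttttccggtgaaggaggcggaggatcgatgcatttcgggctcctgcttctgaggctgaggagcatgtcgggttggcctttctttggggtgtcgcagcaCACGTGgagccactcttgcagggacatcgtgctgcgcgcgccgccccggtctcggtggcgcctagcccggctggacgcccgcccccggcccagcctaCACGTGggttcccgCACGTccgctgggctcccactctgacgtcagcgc
Pfkl: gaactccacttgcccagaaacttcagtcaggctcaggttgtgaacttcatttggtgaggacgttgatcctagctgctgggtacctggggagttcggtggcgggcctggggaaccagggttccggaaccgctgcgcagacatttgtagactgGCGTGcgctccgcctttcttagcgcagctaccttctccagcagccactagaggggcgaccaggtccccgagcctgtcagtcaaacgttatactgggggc
Aldoa: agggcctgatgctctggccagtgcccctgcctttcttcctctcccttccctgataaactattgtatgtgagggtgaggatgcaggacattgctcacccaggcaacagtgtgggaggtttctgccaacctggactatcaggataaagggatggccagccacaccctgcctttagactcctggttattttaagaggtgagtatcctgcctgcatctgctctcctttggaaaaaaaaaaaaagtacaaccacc
Slc2a1: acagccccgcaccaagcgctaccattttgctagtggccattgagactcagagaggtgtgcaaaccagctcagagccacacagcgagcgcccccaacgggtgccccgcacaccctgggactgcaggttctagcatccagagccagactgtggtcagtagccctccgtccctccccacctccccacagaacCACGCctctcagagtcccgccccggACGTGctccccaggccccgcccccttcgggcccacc

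The Ldha window held CACGTG at 2 places and 5 matches to ACGTG counted over both strands, and the other 9 genes held no CACGTG in their outermost windows. The Pfkl window held 1 GCGTG, 99 bases before the start, and that of Slc2a1 1 GCGTG and 1 ACGTG. The outermost Aldoa window held none, although each of its other 2 windows in RefSeq held 1 ACGTG. Over the outermost windows of the 10 genes, 8 held ACGTG or GCGTG, against 38.6% of 32851 windows of that length, while CACGTG was found in 6.02% of all windows. The 10 genes were counted by 1 window each, while all windows can hold several per gene, so the 2 sets are unlike. Which start these cells use was not measured. A match is a description of letters, and binding was not measured here.

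In cultured pro-B cells, Ldha rose in dP1,2 relative to Wapl(+/+), the opposite sign to the sorted cells, and no other of the 10 genes was called. Of 12457 genes tested 3.15% rose, 18.5% fell and 21.6% were called, and the median log2 difference over all genes was -0.18, against 0.02 over the 10 genes. Ldha had 2519.9, 2811 and 2608 TPM in cultured dP1,2 cells, against 1815 and 1889.5 TPM in cultured Wapl(+/+) cells. All 3 mutant libraries lay above both controls, with a log2 difference of 0.51 ± 0.11 (limma adjusted p = 0.0164). The call was lost without either Wapl(+/+) library (log2 difference 0.48, adjusted p = 0.142, and 0.54, adjusted p = 0.0931) and without dP1,2 replicate 2 (0.47, adjusted p = 0.102), and with no filter on low values (0.51, adjusted p = 0.0555). Whether the genotype effect differs between cultured and sorted cells was not tested, since they are separate experiments.

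The other 9 genes did not pass the test in culture. Aldoa had 1364, 1459 and 1271 TPM in dP1,2 cells, against 1289.8 and 1276 TPM in Wapl(+/+) cells, and Pfkl 157, 135 and 123 TPM against 145 and 154 TPM, so both genes overlapped. Slc2a1 had 92.2, 90.3 and 90.0 TPM in dP1,2 cells, against 95.5 and 104 TPM in Wapl(+/+) cells, without overlap but also without a call (log2 difference -0.13, limma adjusted p = 0.385). Over all genes tested in culture 21.6% were called and 3.15% rose, with a median log2 difference of -0.18, and the list counts are read against that. Of 13 other glycolysis genes none rose and 4 fell, including Hk1 (log2 difference -0.86, limma adjusted p = 0.0042). Of the transport genes 3 fell and 1 rose: Slc16a3, the lactate exporter MCT4, rose by 0.89 on the log2 scale (limma adjusted p = 0.035). Wapal stood at 52.8, 30.8 and 30.9 TPM in dP1,2 cells, against 12.2 and 7.41 TPM in Wapl(+/+) cells. Ddx3y had 26.3, 14.7 and 0.0861 TPM in dP1,2 cells, against 0.276 and 0.16 TPM in Wapl(+/+) cells, so Y-linked RNA varied within the mutant group, and the dP1,2 library with 0.0861 TPM had 2608 TPM of Ldha. Erythroid markers summed to 660.3 to 835 TPM in cultured dP1,2 cells, against 410.6 to 476 TPM in cultured Wapl(+/+) cells, and T and innate lymphoid markers to 28.9 to 37.7 TPM, against 80.7 to 128.1 TPM. Their part in these values was not tested.

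Levels of all 10 genes were higher in cultured than in sorted Wapl(+/+) pro-B cells. Each cultured Wapl(+/+) pro-B library lay above both sorted Wapl(+/+) pro-B libraries for every one of them, with ratios of the means from 1.82 for Pfkl to 4.85 for Pgam1. The share of all genes in that order was not computed, so it is not known whether the 10 genes differ from other genes in this. Slc2a1 averaged 99.9 ± 6.17 TPM in cultured cells and 24.6 ± 0.679 TPM in sorted cells, a ratio of 4.07, and Ldha averaged 1852 ± 52.4 TPM in cultured and 613 ± 9.70 TPM in sorted cells, a ratio of 3.02 (SD, n = 2 each). The 2 groups come from different experiments, so culture and experiment cannot be told apart and no test was made. Even between 2 sorted wild-type pro-B groups, those of the Pax5 and the sorted Wapl experiments, the ratio of means ran from 0.949 to 3.04, with 3.04 for Gapdh and 1.31 for Ldha, while cultured over sorted Wapl(+/+) cells gave 2.23 for Gapdh.

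**Figure D3:**
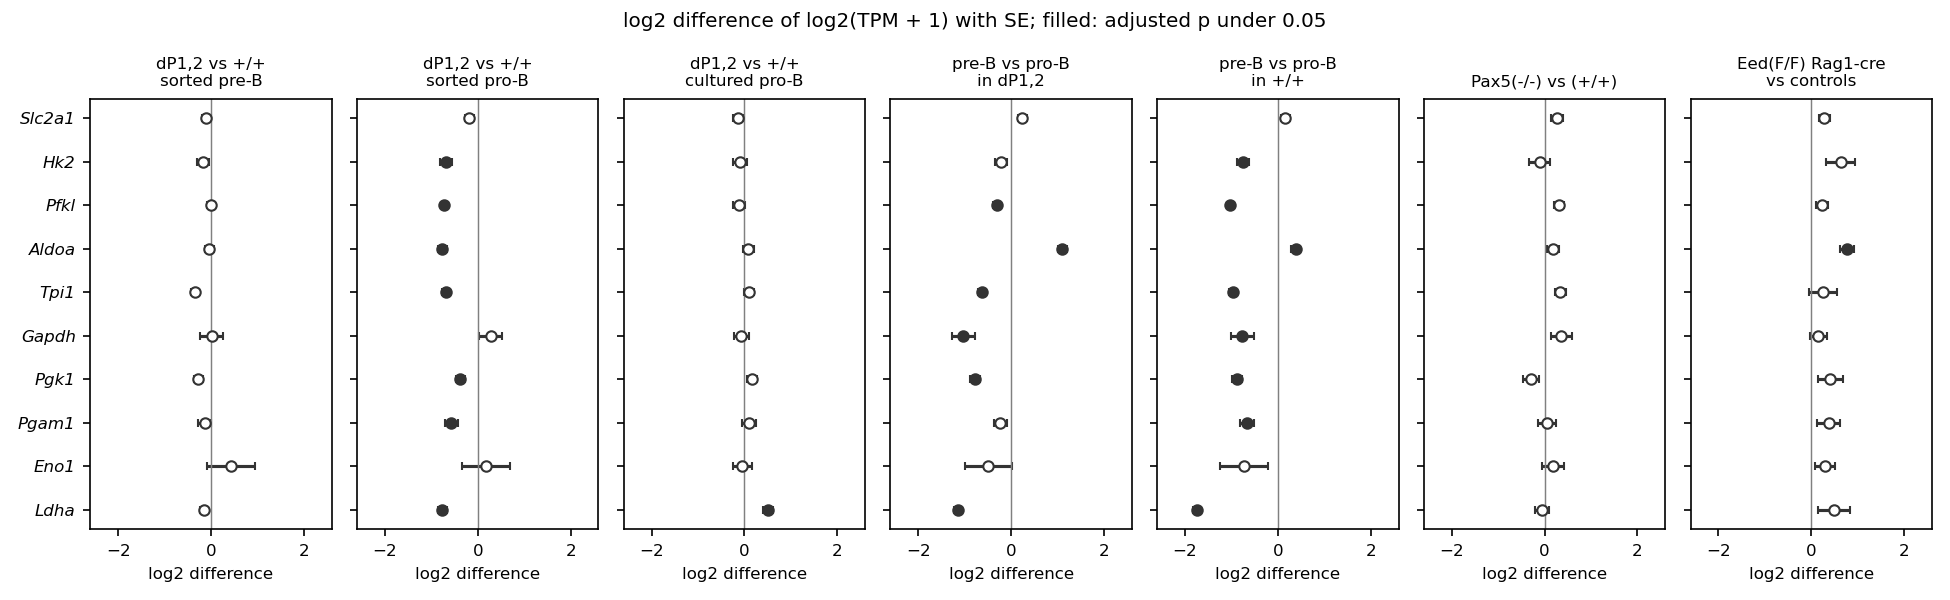
log2 difference of log2(TPM + 1) with its standard error for each gene in 7 comparisons, with filled circles where the adjusted p is under 0.05. In sorted pro-B cells 7 of the 10 genes are filled and below 0, in sorted pre-B cells none is filled, and in cultured pro-B cells Ldha alone is filled, at 0.51.

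In progenitors lacking Pax5, none of the 10 genes was called relative to Pax5(+/+) pro-B cells, in a comparison that called 36.9% of 12023 genes (limma, with 5667 at an unadjusted p under 0.05). The median log2 difference was 0.19 over the 10 genes and -0.11 over all genes. Pfkl had 122 and 104 TPM in Pax5(-/-) progenitors, against 91.4, 90.0 and 90.2 TPM in Pax5(+/+) pro-B cells, and Tpi1 had 637 and 601 TPM against 541, 432 and 501 TPM. Neither gene overlapped between the groups and neither passed the test, with log2 differences of 0.31 ± 0.11 (limma adjusted p = 0.0539) and 0.34 ± 0.12 (limma adjusted p = 0.0579). Scaled by the median ratio of genes in place of TPM, both were called (0.42, adjusted p = 0.0178, and 0.45, adjusted p = 0.0404). Tpi1 was also called without Pax5(+/+) replicate 1 (0.41, adjusted p = 0.0327), and Pgk1 without Pax5(+/+) replicate 2 (-0.47, adjusted p = 0.028). Slc2a1 had 31.3 and 32.1 TPM in Pax5(-/-) progenitors, against 29.1, 24.5 and 25.6 TPM in Pax5(+/+) pro-B cells (log2 difference 0.26 ± 0.13, limma adjusted p = 0.158). Ldha overlapped, with 808 and 726 TPM in Pax5(-/-) progenitors, against 904, 648 and 849 TPM in Pax5(+/+) pro-B cells (log2 difference -0.05 ± 0.15, limma adjusted p = 0.822).

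Single other genes around the pathway were called in the absence of Pax5. Slc2a3 had 41.7 and 38.5 TPM in Pax5(-/-) progenitors, against 20.7 to 22.9 TPM in Pax5(+/+) pro-B cells (log2 difference 0.86, limma adjusted p = 0.0019). Myc had 520 and 456 TPM in Pax5(-/-) progenitors, against 197 to 214 TPM in Pax5(+/+) pro-B cells (log2 difference 1.23, limma adjusted p = 0.00013). Of 14 other glycolysis genes 2 rose and 3 fell, close to the 36.9% of all 12023 genes called in either direction. Ldhb (log2 difference 1.48) and Gpi1 (0.64) rose, while Pgam2 (-0.94), Pfkp (-0.86) and Hk1 (-0.73) fell. Txnip fell by 0.77 on the log2 scale. Markers of plasmacytoid dendritic cells summed to 2432 to 3258 TPM in Pax5(-/-) progenitors, against 379.7 to 432 TPM in Pax5(+/+) pro-B cells, and erythroid markers to 38.0 to 129.99 TPM against 205 to 467 TPM. Their part in these values was not tested.

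In the libraries labelled Eed(F/F) Rag1-cre, Aldoa rose relative to the controls and no other of the 10 genes was called, where 12.6% of 12337 genes rose and 21.8% were called. The fit held as a term the 3 runs into which the library numbers fall. In the lowest-numbered run, Aldoa had 258 TPM in Eed(F/F) Rag1-cre, against 133 TPM in Eed(F/F). In the middle run it had 455 TPM in Eed(F/F) Rag1-cre, against 235 and 325 TPM in Eed(F/+) Rag1-cre. In the highest-numbered run it had 486, 449 and 621 TPM in Eed(F/F) Rag1-cre, against 317 TPM in Eed(F/+) Rag1-cre. The mutant libraries lay above the controls within each run, and the log2 difference was 0.77 ± 0.15 (limma adjusted p = 0.00989). The call was lost in 7 other settings with log2 differences of 0.71 to 0.87 (adjusted p 0.0597 to 0.065). These were the fits with Eed(F/+) Rag1-cre controls only, without the term for the run, without both or either of the lowest-numbered libraries, without Eed(F/F) Rag1-cre replicate 2 and without Eed(F/+) Rag1-cre replicate 3. The fits with Eed(F/+) Rag1-cre controls only and without both or either of the lowest-numbered libraries gave the same log2 difference of 0.71. They are therefore not separate checks.

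Ldha varied widely within the Eed experiment. In the middle run it had 890.2 TPM in Eed(F/F) Rag1-cre, against 295 and 963 TPM in Eed(F/+) Rag1-cre, so the 2 controls lay on either side of the mutant. In the highest-numbered run it had 944, 758 and 1093 TPM in Eed(F/F) Rag1-cre, against 748 TPM in Eed(F/+) Rag1-cre, and the pooled log2 difference was 0.49 ± 0.35 (limma adjusted p = 0.336). Hk2 had 15.04 TPM in Eed(F/F) Rag1-cre, against 4.18 and 14.104 TPM in Eed(F/+) Rag1-cre, in the middle run (pooled log2 difference 0.63 ± 0.31, limma adjusted p = 0.185). It was called without Eed(F/+) replicate 1 (0.39, adjusted p = 0.0302) or without replicate 2 (0.83, adjusted p = 0.0256). Gapdh had 142 TPM in Eed(F/F) Rag1-cre and 78.1 TPM in Eed(F/F) in the lowest-numbered run, while the other 42 RNA libraries reached 21.8 TPM at most. Eno1 stood apart in the same pair, with 66.8 TPM in Eed(F/F) Rag1-cre and 42.6 TPM in Eed(F/F), against at most 10.3 TPM elsewhere. Both genes share most of their sequence with other places in the genome, and the counting used for these libraries is not stated. Pgk1 and Pgam1 share more of theirs, and had 69.5 and 18.8 TPM in Eed(F/F). The Eed(F/+) Rag1-cre libraries had 57.8 to 124 TPM of Pgk1 and 11.3 to 25.6 TPM of Pgam1. The part of repeated sequence in these values was not tested.

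Of 13 other glycolysis genes in the Eed comparison, Ldhb (log2 difference 2.42, limma adjusted p = 3.5e-05) and Pfkm (0.38) rose and none fell. That count lay near the 12.6% of all 12337 genes that rose, where 21.8% were called. Slc16a3 rose by 1.77 on the log2 scale (limma adjusted p = 0.00019), and Pdk1 fell by 0.70. Markers of immature and mature B cells summed to 367 to 892 TPM in Eed(F/F) Rag1-cre, against 67.8 to 182 TPM in the controls, and T and innate lymphoid markers to 116 to 185 TPM, against 26.2 to 42.6 TPM. Of 5 sex-linked genes 4, all Y-linked, were lower in Eed(F/F) Rag1-cre. Ddx3y had 3.23 TPM in Eed(F/F) Rag1-cre, against 6.44 TPM in Eed(F/F), in the lowest-numbered run. In the middle run it had 6.85 TPM, against 7.33 and 9.32 TPM in Eed(F/+) Rag1-cre, and in the highest-numbered run 1.82 to 2.43 TPM, against 3.86 TPM. The part of these in the rise of Aldoa and the other values was not tested.

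In immature B cells, none of the 10 genes was called in any of the 5 comparisons of Igh alleles. The limma fits called 0.544% of genes for Igh(890-inv/+), 0.00834% for Igh(CBE/+), 0.0834% for Igh(CBE-inv/+), 0.235% for Igh(V8-8/delta890) and 0.219% for Igh(V8-8-inv/delta890), with 617, 294, 298, 221 and 724 genes at an unadjusted p under 0.05. Medians over the 10 genes lay between -0.05 and 0.01 on the log2 scale. Slc2a1 had 53.2 and 51.5 TPM in Igh(890-inv/+), against 51.4 and 49.4 TPM in the Igh(+/+) libraries of that experiment, and Ldha had 281 and 269.6 TPM against 283 and 284 TPM. Pgk1 had 63.6 and 63.9 TPM in Igh(890-inv/+), against 76.7 and 88.3 TPM in Igh(+/+), without overlap and without a call (limma adjusted p = 0.44). In the V8-8 experiment Ldha had 312 and 327 TPM in Igh(V8-8/delta890) and 300.3 and 277 TPM in Igh(V8-8-inv/delta890), against 298 and 332 TPM in Igh(+/delta890). For the 10 genes, these allele changes at Igh thus gave no difference that passed the test.

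Across the 17 immature B libraries Slc2a1 ranged from 49.4 to 70.0 TPM and averaged 59.3 ± 5.78 (SD), while the 4 pre-B libraries ranged from 23.9 to 28.4 TPM. Aldoa ranged from 591 to 770.0 TPM in immature B cells, against 342 to 399 TPM in pre-B cells, and Ldha from 212 to 332 TPM, against 159 to 194 TPM. All 17 immature libraries lay above all 4 pre-B libraries for these 3 genes, with ratios of the means of 2.23, 1.76 and 1.56. Stage and experiment cannot be told apart here, so this is a description.

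Over the 18 groups, the cultured groups were highest for 8 of the 10 genes, and Gapdh and Eno1 were highest in the Eed(F/F) library without Cre. The lowest group mean was that of dP1,2 pre-B cells for Hk2, Tpi1, Pgk1, Pgam1 and Ldha. For Slc2a1 and Aldoa all 7 immature B groups came directly below the cultured groups, and the lowest was dP1,2 pro-B for Slc2a1 and Eed(F/F) without Cre for Aldoa. Between neighbours in the order of group means, 10 of 17 pairs overlapped for Slc2a1, Tpi1 and Ldha, 12 for Aldoa and Pgk1, 14 for Hk2 and Pfkl, 15 for Pgam1 and 16 for Gapdh and Eno1. Most neighbours thus did not differ beyond their spread, and the single Eed(F/F) library has none.

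**Figure D4:**
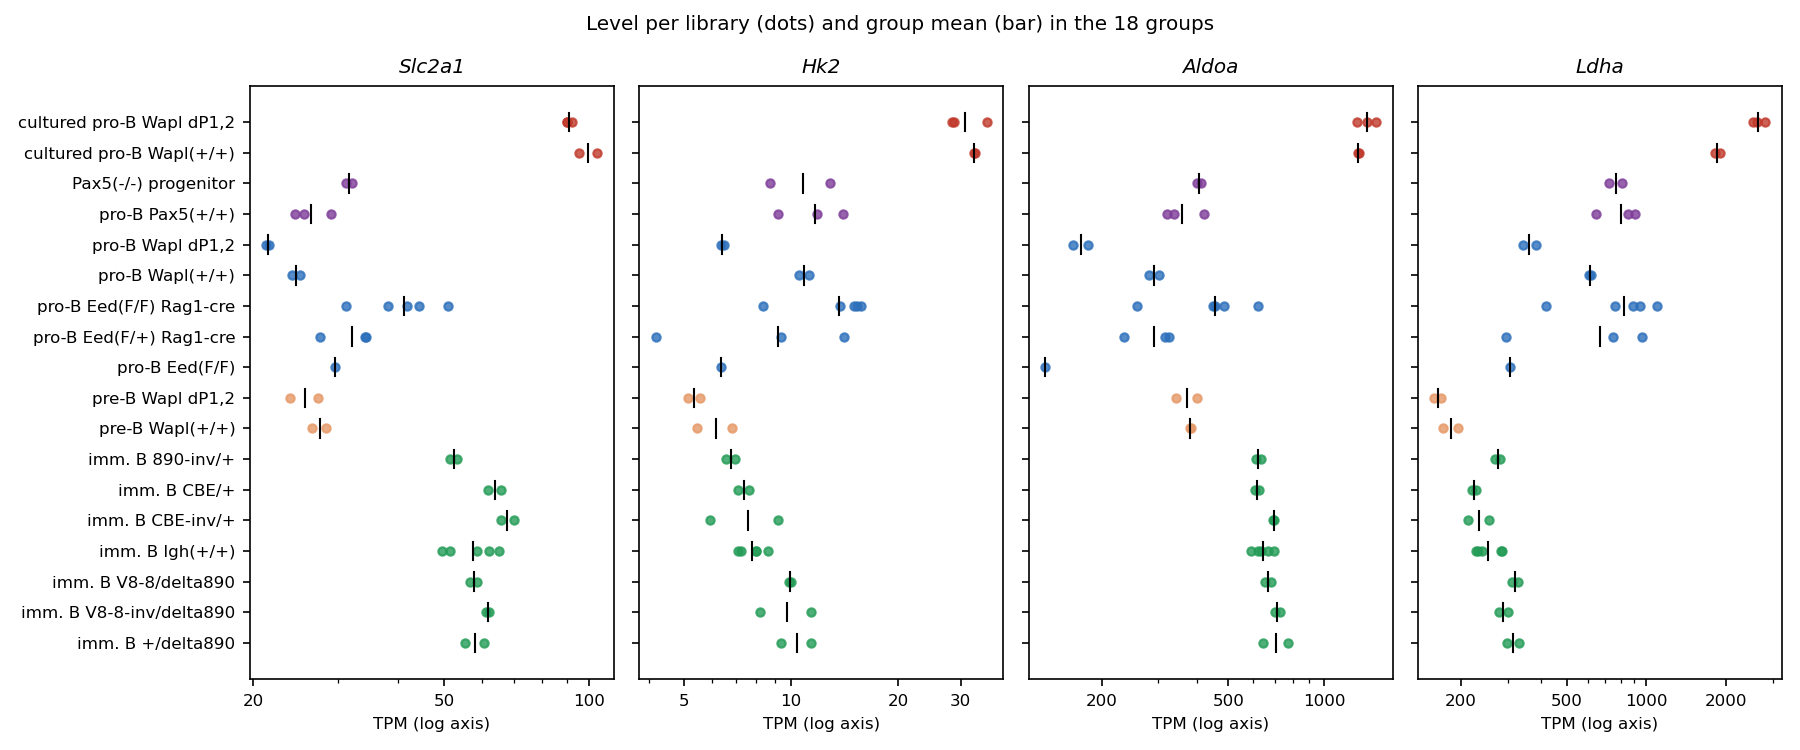
TPM per library (dots, log axis) and group mean (bar) of Slc2a1, Hk2, Aldoa and Ldha in the 18 groups, each mutant above its control. Slc2a1 lies at 49.4 to 70.0 TPM in the immature B libraries and at 23.9 to 28.4 TPM in pre-B libraries, and all 4 genes are highest in cultured pro-B cells.

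The 10 genes did not form a single profile over these groups. Over the 18 group means of log2(TPM + 1), Pearson r was 0.985 between Pgk1 and Pgam1, 0.979 between Tpi1 and Ldha and 0.956 between Pfkl and Tpi1. Slc2a1 went with Aldoa (r = 0.897) more than with Ldha (r = 0.292), and Aldoa and Gapdh gave r = -0.364. The points share experiments, and the 2 cultured groups stand far from the rest, so these values describe the set only. Among 11838 other genes, the profiles most like the mean of the 10 were those of 0610007P14Rik and Mrps18b (r = 0.979 each), Slc39a14 (0.976), Aldoc (0.975), Eif1a (0.967) and Lmbr1 (0.966). Most like Slc2a1 alone were Cd276 (0.968), Sspn (0.940) and Slc44a1 (0.926), and most like Hk2 alone were Odc1 (0.954), 0610007P14Rik (0.948) and Ero1l (0.942).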

How the data were processed

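RNA levels were deposited by the authors as TPM per gene, 1 file per library. In 11 files the column header is a number and the column is recorded as signal, but the values deposited there sum to the same total and were treated as TPM. Per the labels' protocols, cells were sorted from bone marrow or expanded in culture. Per the submitters' processing notes, the tools of the series include Bowtie2 2.1.0 and 2.2.9, featureCounts 1.5.0 and DESeq2 2.1.14.1, with builds mm9 and mm10, without roles. For the RNA files, the sources used here do not state the aligner, build or strand setting. TPM is relative within a library, and depth is unknown, so no counting error can be given.

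Rows were matched by symbol after cutting suffixes such as _IMP_OVL, and rows of the same symbol were summed. limma 3.58.1 (R 4.3.3) fitted each comparison within its experiment, using log2(TPM + 1) and a prior variance that follows the mean level. Genes entered if they reached 1 TPM in a number of libraries equal to the smallest group. All 10 genes passed this filter in all 13 comparisons. Tests are two-sided, and p-values were adjusted over all genes tested. Differences on this scale understate changes of low genes. The 4 sorted Wapl groups were fitted together, and the Eed fit had the run of library numbers as a term. The fitting was tested on simulated data. Transcript windows came from GENCODE models of NCBIM37, and promoters from RefSeq, GRCm38.p6, in which all 10 genes were matched. List genes are named by a rule: at most 6 per list and comparison, the called ones with the largest log2 change, and likeness was taken among genes reaching 5 TPM in a group mean. The members and lists were chosen with earlier results of these data known. Alternatives were other pseudocounts, filters, median-ratio scaling, control sets and each library left out. V(D)J joins, peaks and other assays were not used here.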

Additional observations from a re-analysis of the deposited data

Results flagged for a closer look

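Within the 5 libraries labelled Eed(F/F) Rag1-cre, replicate 1 stood apart for 3 genes. Gapdh was highest there, at 142 TPM, with the gap to the nearest library taking 0.968 of the group's whole range. Eno1 was highest there too, at 66.8 TPM, with a gap of 0.955 of the range, and Hk2 was lowest, at 8.33 TPM, with a gap of 0.732 of the range. The gap test covered 20 sets of values, each gene in each group of 5 libraries. Chance flags about 1 in 20 where all libraries are alike, but these groups pool runs or experiments, so that rate need not hold. Replicate 1 belongs to the lowest-numbered run of the Eed libraries, whose control, Eed(F/F) without Cre, also stood high, at 78.1 TPM of Gapdh and 42.6 TPM of Eno1. The Hk2 level of that control was 6.37 TPM.

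The genotype effect of dP1,2 in pre-B cells differed from that in pro-B cells for 3 genes by an interaction term (limma), which called 3.35% of all genes. Each of these 3 calls was lost in most of the fits that left out a single library. The difference on the log2 scale was 0.71 for Pfkl, 0.721 for Aldoa and 0.603 for Ldha. For Ldha the effect was -0.16 in pre-B cells and -0.76 in pro-B cells, for Aldoa -0.04 in pre-B cells and -0.76 in pro-B cells, and for Pfkl -0.01 in pre-B cells and -0.72 in pro-B cells.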

How the results depend on the processing

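With each library left out in turn, the number of the 10 genes called was 4 to 6 in sorted pro-B cells (7 with all libraries), 0 to 2 for the difference between pre-B and pro-B cells (3), 0 to 1 in culture (1), 0 to 1 for Pax5(-/-) (0), 0 to 2 for Eed (1), 6 to 8 between Wapl(+/+) stages (8) and 5 to 6 between dP1,2 stages (6). Where 1 library of a group was left, it is assumed to vary like the other groups. All genes called then ranged from 836 to 1999 in pro-B cells, 180 to 456 in pre-B cells, 90 to 312 for their difference, 460 to 5978 in culture, 1386 to 5074 for Pax5(-/-), 1198 to 5155 for Eed, 0 to 20 for Igh(890-inv/+), 0 to 0 for Igh(CBE/+), 6 to 11 for Igh(CBE-inv/+), 21 to 410 for Igh(V8-8/delta890) and 20 to 1426 for Igh(V8-8-inv/delta890). With no filter on low values, 1 of the 10 genes was called for the difference between stages, 0 in culture, and 9 genes in all for Igh(CBE/+), where the controls of both experiments gave 0. Median-ratio scaling called 2 of the 10 genes for Pax5(-/-). The Eed comparison called 1606 genes with a filter of 5 TPM, 1479 with Eed(F/+) Rag1-cre controls only, and 1467 without the 2 lowest-numbered libraries, a choice made after seeing the data. Of the 10 genes 0 were called with those controls, without those libraries, or without the run term. Fitted alone, the pre-B groups gave 246 genes. Without immunoglobulin rows the counts were 3 for Igh(890-inv/+), 0 for Igh(CBE-inv/+), 4 for Igh(V8-8/delta890) and 2 for Igh(V8-8-inv/delta890).

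Directions turned only for log2 differences that were called neither with all libraries nor where the sign turned. Scaled by the median ratio they were 0.0065 for Pfkl in pre-B cells, 0.012 for Hk2, 0.034 for Gapdh and 0.051 for Eno1 in culture, and 0.058 for Ldha in Pax5(-/-). For Eed, Eno1 was -0.091 without the run term and Gapdh -0.10 with Eed(F/+) Rag1-cre controls only or without the 2 lowest-numbered libraries. With 1 library left out, sorted pro-B cells gave -0.055 to 0.62 for Gapdh and -0.67 to 1.03 for Eno1, and pre-B cells -0.054 to 0.037 for Pfkl, -0.15 to 0.070 for Aldoa and -0.19 to 0.22 for Gapdh. Their difference gave -0.011 to 0.18 for Slc2a1, -0.60 to 0.073 for Gapdh, -0.0035 to 0.21 for Pgk1 and -0.60 to 1.09 for Eno1, and the dP1,2 stages -1.34 to 0.36 for Eno1. Culture gave -0.16 to 0.034 for Gapdh, -0.080 to 0.28 for Pgam1 and -0.33 to 0.24 for Eno1. Pax5(-/-) gave -0.36 to 0.15 for Hk2, -0.10 to 0.19 for Pgam1 and -0.19 to 0.045 for Ldha, and Eed -0.10 to 0.43 for Gapdh. The cause of these changes was not tested, and the depth behind the values is unknown. No paired analysis was possible because the labels carry no replicate numbers shared between groups.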
